A study of Mus musculus with 6 samples.

Results

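Leukocyte miRNAs, known from white blood cells, were followed in the renal cortex of mice. The 7 members were mmu-miR-142-3p, mmu-miR-142-5p, mmu-miR-223, mmu-miR-150, mmu-miR-155, mmu-miR-146a and mmu-miR-146b, where mmu- stands for mouse and is otherwise left out. They were chosen by name, leaving out star strands, and made up 7 of the 599 mature miRNAs on the arrays. The treated group held 3 C57Bl6 mice that ate food with 0.05% sodium and drank water with 0.5 g/L captopril, which blocks angiotensin converting enzyme, over 10 days. The control group held 3 untreated mice of the same strain, and the labels name no allele or agent that both groups carry. Each sample was the total RNA of 1 mouse, taken from whole cortex and not from sorted cells. Treated replicate 1 was a female of 5 months, control replicate 3 a female of 3.5 months, and the other 4 mice were males of 3.5 months. Treated replicates 1 and 3 and control replicate 2 were stained with Cy5, and the other 3 samples with Cy3. The comparison asks which cortical miRNAs differ in mice on low-sodium food and captopril, a treatment under which more cells of the kidney make renin.

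MiRNAs guide the Argonaute complex to matching sites in messenger RNAs through a short seed near their 5′ end, and the bound messages are silenced. A few of them are much richer in blood-forming cells than in epithelium, so tissue RNA carries them mainly with resident or circulating leukocytes. MiR-142 is made by nearly all haematopoietic cells, miR-223 marks neutrophils and other myeloid cells, and miR-150 is high in mature lymphocytes, where it restrains the transcription factor Myb. MiR-155 comes from the Mir155hg transcript, which is induced when lymphocytes and macrophages are activated. MiR-146a and miR-146b are induced through NF-kB and dampen it by targeting the adaptors Traf6 and Irak1, and miR-146a and miR-155 are also made by cells other than leukocytes.

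The mature sequences show which of these probes can be told apart, with the seed (bases 2 to 8) in capitals. RefSeq sequences (GRCm38.p6) were matched for 6 of the 7 miRNAs, and all 6 were identical to the target sequence that the arrays list.
miR-142-3p: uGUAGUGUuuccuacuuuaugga
miR-142-5p: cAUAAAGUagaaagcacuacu
miR-223: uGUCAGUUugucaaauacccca
miR-155: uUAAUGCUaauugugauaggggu
miR-146a: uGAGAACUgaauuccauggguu
miR-146b: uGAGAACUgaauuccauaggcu

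MiR-146a and miR-146b shared the seed GAGAACU, and the seed of each of the 4 others occurred in no further miRNA of the array. Counted from the 5′ end, miR-146a and miR-146b differed by 2 of 22 bases, G18A and U21C, where miR-146a has the first base of each token. Part of the signal of each of these probes can thus come from the other miRNA. Against array miRNAs of their own length, the other 4 had at least 10 mismatches. The arms of miR-142 lie in 1 hairpin on the plus strand, at chr11:87756867-87756887 for miR-142-5p and chr11:87756903-87756925 for miR-142-3p, outside any other annotated gene but for the miRNA Mir142b. MiR-155 lies at chr16:84714143-84714165 within the long noncoding RNA Mir155hg, and miR-223 at chrX:96242884-96242905 within the long noncoding RNA F630028O10Rik. MiR-146a lies at chr11:43374435-43374456 on the minus strand, in no other annotated gene, and miR-146b at chr19:46342790-46342811 within the long noncoding RNA Gm36493. MiR-150 is encoded by Mir150.

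Of the 7 leukocyte miRNAs, 4 gave a signal that could be compared and 3 did not. To count as above background in a sample, the 5 spots of a miRNA had to average over 3 SD more than the 669 empty spots on the log2 scale, which took 1.16 to 1.31 times the empty signal. Between 127 and 229 of the 599 miRNAs passed in a sample, and 197 passed in at least 3 of 6 samples and were tested. MiR-150, miR-155 and miR-146a were above background in all 6 samples, miR-146b in 4, miR-223 in 2, and the arms of miR-142 in none. Treated replicates 1, 2 and 3 showed 5, 3 and 5 of the 7 miRNAs, and control replicates 1, 2 and 3 showed 4, 3 and 4. Over all 599 miRNAs the counts were 229, 132 and 201 in treated and 199, 127 and 191 in control replicates 1, 2 and 3. The median empty spot read 219 to 459 in Cy3 samples and 34.4 to 51.2 in Cy5 samples, so the fold over empty spots is a measure of detection within a sample and not a level to compare between samples.

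**Figure D1:**
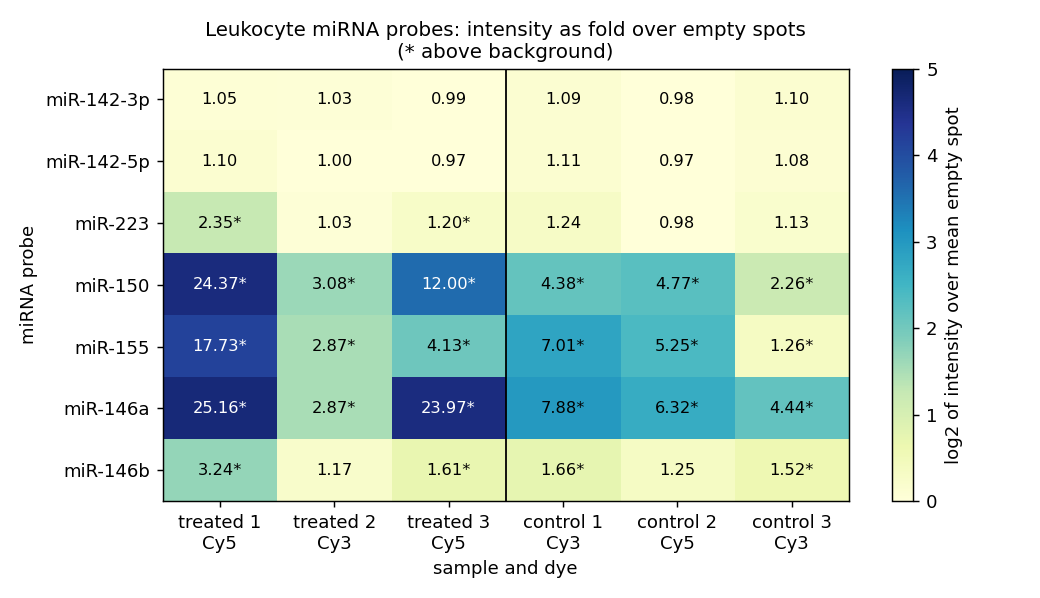
Each cell gives the mean spot intensity of a leukocyte miRNA probe (rows) as a fold over the mean empty spot of its own sample (columns, treated left of control, with the dye below), coloured on a log2 scale, with an asterisk where the probe was above background. The rows of miR-142-3p and miR-142-5p stay between 0.97 and 1.11 in all 6 samples, whereas miR-150 and miR-146a exceed 2.2 in every sample.

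MiR-142-3p and miR-142-5p, the broadest haematopoietic markers of the set, could not be told from empty spots in either group. MiR-142-3p lay at 1.05, 1.03 and 0.99 times the empty signal in treated replicates 1, 2 and 3, and at 1.09, 0.98 and 1.10 times in control replicates 1, 2 and 3. MiR-142-5p lay between 0.97 and 1.11 times the empty signal over the 6 samples. No level of either arm can thus be given, and a difference smaller than the detection threshold was not detectable. Whether these 2 probes respond to their miRNA was not tested. The authors' processed intensities of both arms were 3 to 18 in all samples, against column medians of 17 to 19 over all 599 miRNAs.

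MiR-223, a myeloid miRNA, was above background in 2 of 3 treated samples and in no control. These were treated replicates 1 and 3, both in Cy5, which had the most miRNAs above background of all samples (229 and 201 of 599). The spots of miR-223 read 2.35, 1.03 and 1.20 times the empty signal in treated replicates 1, 2 and 3, and 1.24, 0.98 and 1.13 times in control replicates 1, 2 and 3. With a threshold of 2 SD in place of 3, miR-223 was above background in 2 treated and 2 control samples. Only treated replicate 1, the female of 5 months, was well clear of its threshold, while treated replicate 3 lay just inside and control replicate 1 just outside it, at 3.37 and 2.94 SD over the empty spots. The group levels were 6.69 ± 0.27 in treated and 6.51 ± 0.10 in control samples (SD of the log2 normalised intensity, n = 3 each), and they overlapped. No lower bound on a fold change could be set, because the bound lay under 1. With too few samples above background, miR-223 was not among the tested miRNAs. In a fit of all 599 probes its difference was 0.15 (SE 0.17, adjusted p = 0.998 in limma). Treated minus control was -0.10 within Cy3 and 0.40 within Cy5.

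A level is here the log2 of the background-corrected, quantile-normalised intensity, and a difference is treated minus control on that scale from limma with a term for the dye. Of the 197 tested miRNAs, 0 passed an adjusted p of 0.05 (0% of all tested), so none of the 4 leukocyte miRNAs was called, which does not show that their levels were equal. At an unadjusted p under 0.05 there was 1 among the 197 (0.508%), and it was not a leukocyte miRNA. In whole cortex, fewer cells of a type and less RNA per cell cannot be told apart.

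**Figure D2:**
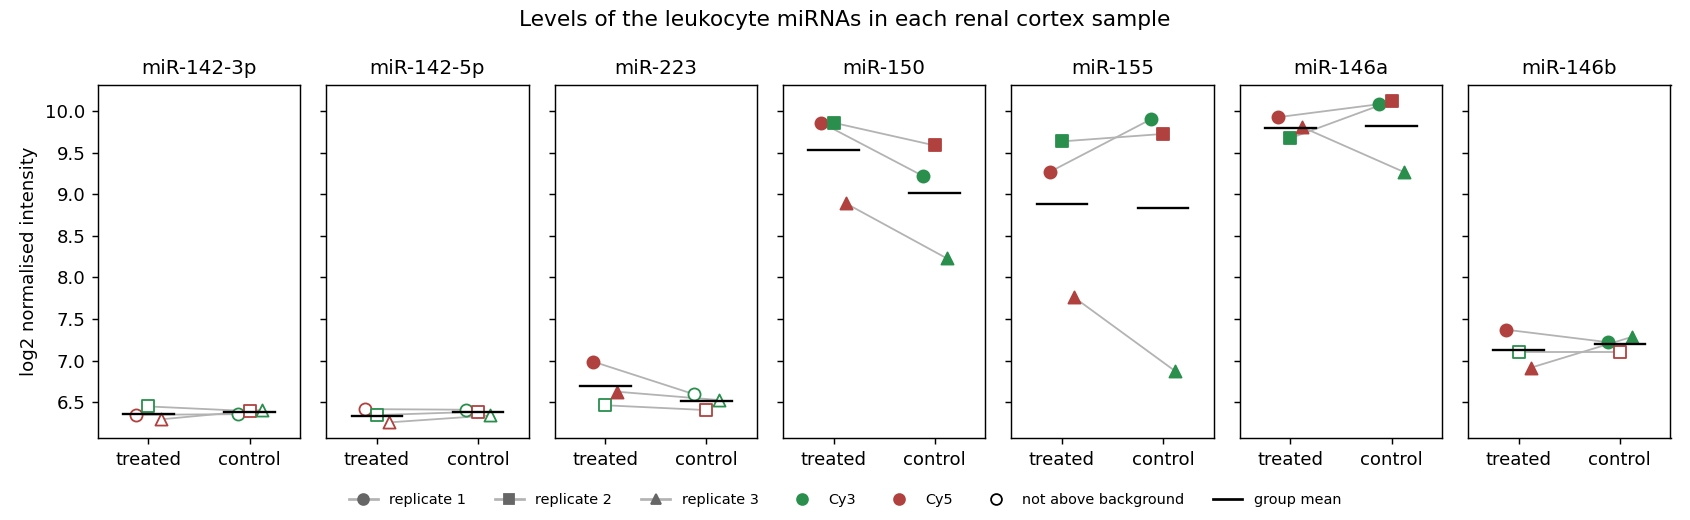
Points show the log2 normalised intensity of each leukocyte miRNA in treated (left) and control (right) samples, with shape for the replicate number, colour for the dye, open symbols where the probe was not above background, a bar for the group mean and grey lines joining samples of the same number. The triangles of replicate 3 lie lowest in both groups for miR-150 and miR-155, and the groups overlap for all 7 miRNAs.

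MiR-150, the lymphocyte miRNA, had a higher mean in treated mice and did not pass the test. Its level was 9.86, 9.86 and 8.89 in treated replicates 1, 2 and 3, and 9.22, 9.58 and 8.23 in control replicates 1, 2 and 3. Replicate 3 was the lowest sample of each group, and the groups overlapped. The means were 9.54 ± 0.56 in treated and 9.01 ± 0.70 in control samples (SD, n = 3 each). The dye-adjusted difference was 0.46 (SE 0.50, 95% interval -0.80 to 1.72, adjusted p = 0.995 in limma), or 1.38-fold with an interval of 0.574 to 3.30-fold.

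Set side by side by replicate number, miR-150 was higher in the treated sample of all 3 pairs, by 0.64, 0.27 and 0.66. This held for 28 of the 197 tested miRNAs (14.2%), and for 1 of the 4 leukocyte miRNAs. In a fit with dye and the pair as a replicate block, the difference was again 0.46 and had an SE of 0.17, with an unadjusted p of 0.0418 and an adjusted p of 0.625 in limma. That fit left 1 residual degree of freedom, and its pairs were accepted from a correlation in these same data. In that fit 15 of 197 miRNAs (7.61%) had an unadjusted p under 0.05, and 0 passed the adjusted threshold. Within Cy3, treated minus control was 1.13, and within Cy5 it was -0.21. Without treated replicate 2, the only treated sample in Cy3, the difference was -0.19, and without control replicate 2, the only control in Cy5, it was 1.18. Among the 4 males alone it was -0.02. The authors' processed intensities were 826, 931 and 392 in treated replicates 1, 2 and 3, and 497, 756 and 226 in control replicates 1, 2 and 3.

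MiR-155 is induced in activated lymphocytes and macrophages and is also made by other cells. It varied more between mice of 1 group than any other of the leukocyte set, and its groups did not separate. Its level was 9.27, 9.63 and 7.76 in treated replicates 1, 2 and 3, and 9.90, 9.72 and 6.87 in control replicates 1, 2 and 3. The samples numbered 3 were far below the other 4, whose levels lay between 9.27 and 9.90. The same was seen spot by spot. The 5 spots of miR-155 read 262 to 285 in control replicate 3, with a detection threshold of 254, against 1772 to 2309 in control replicate 1, which carried the same dye. Spot-to-spot SD within a sample was 0.06 to 0.20 on the log2 scale before background correction. The SD of the control levels was 1.70 after correction and normalisation, so the 2 scales differ. The authors' processed intensities ran the same way, at 582, 794 and 139 in treated replicates 1, 2 and 3, and 875, 813 and 43 in control replicates 1, 2 and 3.

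The means of miR-155 were 8.89 ± 0.99 in treated and 8.83 ± 1.70 in control samples (SD, n = 3 each), and the difference was 0.02 (SE 1.05, adjusted p = 0.995 in limma). Its 95% interval ran from -2.61 to 2.64, or 0.164 to 6.25-fold, so this fit leaves large changes in either direction undetected. With dye and the replicate block the interval was narrower, -0.86 to 0.90 (SE 0.34). That fit left 1 residual degree of freedom, and its pairs were accepted from these same data, so the width depends on the model. Treated minus control was 1.25 within Cy3 and -1.21 within Cy5. In the same-numbered pairs it was -0.63, -0.09 and 0.89. Leaving out 1 sample moved the difference between -1.22 (without treated replicate 2) and 1.32 (without control replicate 2), and without both samples numbered 3 it was -0.34 (adjusted p = 1.00 in limma).

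The drop of miR-155 in the samples numbered 3 was shared by other miRNAs. The SD of miR-155 over all 6 samples ranked 6 of 197 tested miRNAs. The mean of treated and control replicate 3 minus the mean of the other 4 samples was -2.31 for miR-155, -1.07 for miR-150, -0.41 for miR-146a and -0.10 for miR-146b. Over all 197 miRNAs this quantity ran from -3.54 to 2.48, with quartiles at -0.35 and 0.44, and miR-155 held place 3 and miR-150 place 14 from the low end. The 2 samples differ in group, dye and sex, and the labels do not say what their shared number marks. The part of that number in the level of miR-155 was not tested.

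MiR-146a, the inhibitor of NF-kB signalling, had the smallest SD in treated mice of the 3 leukocyte miRNAs detected in all samples. Its level was 9.92, 9.67 and 9.80 in treated replicates 1, 2 and 3, and 10.08, 10.12 and 9.27 in control replicates 1, 2 and 3. The treated samples lay within the span of the controls, of which replicate 3 was the lowest of all 6 samples. The means were 9.80 ± 0.13 in treated and 9.82 ± 0.48 in control samples (SD, n = 3 each), and the difference was -0.13 (SE 0.30, 95% interval -0.88 to 0.62, adjusted p = 0.995 in limma). As a ratio this was 0.915-fold, with an interval of 0.544 to 1.54-fold. Treated minus control was 0.00 within Cy3 and -0.25 within Cy5, and -0.16, -0.45 and 0.54 in the same-numbered pairs. The authors' processed intensities were 855, 842 and 735 in treated replicates 1, 2 and 3, and 1091, 1023 and 475 in control replicates 1, 2 and 3.

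MiR-146b, which carries the same seed, lay near background. Its level was 7.37, 7.11 and 6.91 in treated replicates 1, 2 and 3, and 7.22, 7.11 and 7.29 in control replicates 1, 2 and 3, and both samples numbered 2 were not above background. The means were 7.13 ± 0.23 in treated and 7.20 ± 0.09 in control samples (SD, n = 3 each). The difference was -0.06 (SE 0.24, 95% interval -0.65 to 0.54, adjusted p = 0.995 in limma), with 0.15, 0.00 and -0.37 in the same-numbered pairs. Of the 197 tested miRNAs, its SD over the 6 samples ranked 172 and that of miR-146a 107. So near background, a small SD does not show a steady level. With subtraction of the median empty spot as background correction, the SE of the difference was 0.51 for miR-146b and 0.48 for miR-146a.

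Both groups held 2 males of 3.5 months, 1 in each dye, which balances sex, age and dye. It does not balance the replicate number, since the treated males were replicates 2 and 3 and the control males replicates 1 and 2. The levels of miR-155 were 9.63 and 7.76 in the treated males, below the 9.90 and 9.72 of the control males, and the low value was that of treated replicate 3. The levels of miR-146a were 9.67 and 9.80 in the treated males, below the 10.08 and 10.12 of the control males. Both treated males lay below both control males for 19 of 197 tested miRNAs (9.64%). In the males alone, miR-155 differed by -1.09 (SE 0.55) and miR-146a by -0.36 (SE 0.22), each with an adjusted p = 1.00 in limma, and the levels of miR-150 and miR-146b did not separate the male groups.

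As a set, the 4 tested leukocyte miRNAs had a median difference of -0.02, with 2 above and 2 below 0. The median over all 197 tested miRNAs was -0.01, with 93 above and 104 below 0. The levels of the groups overlapped for all 7 leukocyte miRNAs, while 9 of the 197 tested miRNAs (4.57%) had groups that did not overlap. The median of all 197 shifted to 0.29 when samples were not normalised to each other, and to -0.53 with scaling to the 75th percentile. Relative to those medians, miR-150 differed by 0.76, miR-155 by 0.32, miR-146a by 0.21 and miR-146b by -0.20 under either scaling. The 2 settings must give the same relative values, since percentile scaling shifts all miRNAs of a sample alike. In the main fit miR-146a lay at -0.12 relative to the median. The sign of miR-146a relative to all tested miRNAs thus turned with the scaling.

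A wider list of 16 miRNAs tied to immune cells or their activation gave a like picture. MiR-511, which is encoded within the macrophage mannose receptor gene, and miR-147, which Toll-like receptor signals induce in macrophages, were above background in no sample. The other 14 were tested, 0 passed, 6 lay above 0 and 8 below, and the median difference was -0.02. MiR-342-3p, which is carried by the Evl gene and high in lymphocytes, lay at 7.62 ± 0.39 in treated and 7.35 ± 0.32 in control samples (SD, n = 3 each). It was higher in all 3 pairs, as were miR-21 and miR-9, so 3 of the 14, against 28 of all 197 tested miRNAs (14.2%). For miR-342-3p, treated minus control was 0.66 within Cy3 and -0.18 within Cy5. MiR-181a, a regulator of lymphocyte receptor signalling, lay at 8.90 ± 0.28 and 9.05 ± 0.65 in treated and control samples, with a difference of -0.03. MiR-21, which macrophages and injured tubules both make, had the highest difference of the list, 0.41 (SE 0.30, adjusted p = 0.995 in limma), and miR-17, of the cluster that drives lymphocyte growth, the lowest, -0.36 (SE 0.40, adjusted p = 0.995). The differences of miR-125a-5p (0.26), miR-9 (0.23), miR-132 (0.18) and miR-342-5p (0.01) lay above 0. Those of miR-181b (-0.01), miR-181c (-0.09), miR-181d (-0.02), miR-24 (-0.17), miR-29a (-0.16) and miR-187 (-0.18) lay below 0.

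**Figure D3:**
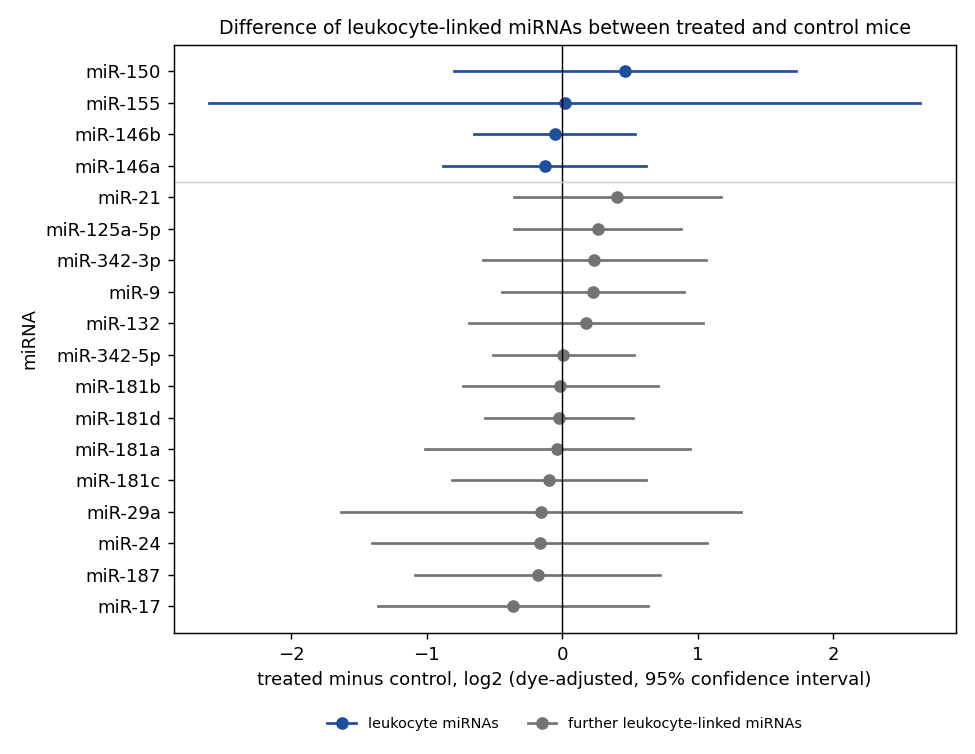
Points show the dye-adjusted treated minus control difference (log2) and bars its 95% confidence interval for the 4 tested leukocyte miRNAs (blue, top) and 14 further leukocyte-linked miRNAs (grey). Every interval crosses 0, and that of miR-155, from -2.61 to 2.64, is the widest shown.

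Markers of other cells were read on the same arrays. MiR-10b, the brightest of the tested tubule miRNAs, lay at 13.83 ± 0.17 in treated and 13.60 ± 0.39 in control samples (SD, n = 3 each), and 6 of 7 tubule and all 5 epithelial miRNAs of the lists were above background in at least 3 samples, miR-215 in none. Of the 6 tested tubule miRNAs 3 lay above and 3 below 0, with a median difference of -0.03 and a range from -0.46 for miR-192 to 0.45 for miR-10a. The median difference was -0.01 for the 5 epithelial, -0.06 for the 2 endothelial and 0.11 for the 2 smooth muscle miRNAs, and 0 of these passed. Red cell miRNAs bear on blood left in the tissue, since the labels do not say whether kidneys were flushed. The red cell miRNA miR-451 lay at 10.64, 10.20 and 10.64 in treated replicates 1, 2 and 3, above 9.92, 9.92 and 8.72 in control replicates 1, 2 and 3. Groups that did not overlap were seen for 9 of the 197 tested miRNAs (4.57%). The difference of miR-451 was 0.80 (SE 0.38, adjusted p = 0.995 in limma), with 0.88 within Cy3 and 0.72 within Cy5. MiR-486 lay at 9.37 ± 0.46 in treated and 8.28 ± 1.13 in control samples. It was higher in all 3 pairs, as were miR-150 and 28 of the 197 tested miRNAs in all (14.2%). For miR-486, treated minus control was 2.04 within Cy3 and -0.27 within Cy5. MiR-144 was above background in no sample. Of the 3 red cell miRNAs 2 were tested and 0 passed, and their summed processed intensity was 2070 to 2487 in treated and 468 to 1703 in control samples. The sum of the 5 epithelial miRNAs did not overlap either, at 17556 to 18855 in treated and 14923 to 17169 in control samples. That of the 7 leukocyte miRNAs did, at 1345 to 2709 in treated and 884 to 2696 in control samples, as did the sums of the other lists. The part of blood content in the values of miR-150 was not tested.

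The tested miRNAs whose profiles lay nearest to each leukocyte miRNA were found by the root mean square difference of levels centred over the 6 samples. For miR-155 these were miR-196a (0.205) and let-7e (0.351), against the 1.24 SD of miR-155 itself. MiR-196a lay at 11.68, 11.89 and 10.12 in treated replicates 1, 2 and 3, and at 12.41, 12.23 and 8.78 in control replicates 1, 2 and 3, so its replicate 3 samples were low as well. For miR-150 the nearest were miR-374 (0.167) and miR-574-5p (0.197), for miR-146a let-7d (0.165) and miR-193* (0.182), and for miR-146b miR-181d (0.0712) and miR-148a (0.123). The 6 samples behind these likenesses share dyes and replicate numbers, and the nearest profile of none of the 4 was another leukocyte miRNA of the set. With only 4 of the 197 tested miRNAs in the set, this does not show whether they vary together. MiR-181d is on the wider list of miRNAs tied to immune cells.

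**Figure D4:**
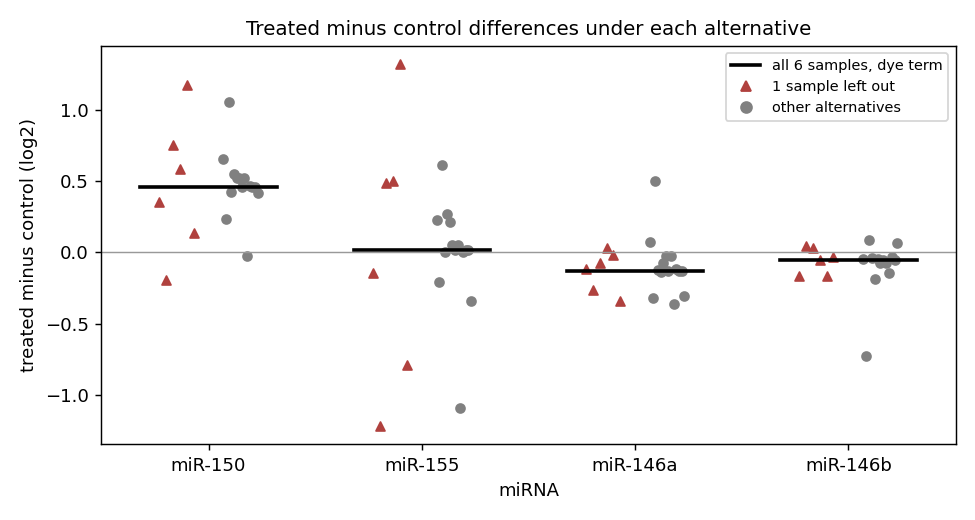
For each tested leukocyte miRNA (horizontal axis) the black bar gives the treated minus control difference (log2, vertical axis) of all 6 samples with a dye term, red triangles the difference with 1 sample left out, and grey circles the other alternatives. The triangles of miR-155 reach from -1.22 to 1.32, whereas those of miR-146b, which lay near background, stay between -0.16 and 0.04.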

How the data were processed

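The spot tables hold mean spot intensity on a linear scale, per the file headers, 3968 spots per sample with 5 for each of 599 miRNAs, background not subtracted. A second table holds the authors' processed intensity in whole numbers (column medians 17 to 19), whose scale and centring are not given in the sources used here. Each of its columns ranked the tested miRNAs most like its own spot table (rank correlation 0.995 to 0.999, at most 0.965 with another), and it served as an alternative after log2(value + 10).

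In R 4.3.3 with limma 3.58.1, spots were corrected with normexp (offset 50, all spots), log2 values averaged per probe and samples quantile-normalised over 599 probes, which gives equal ranks equal levels. Group and dye were fitted with lmFit and eBayes (two-sided, Benjamini-Hochberg over 197 miRNAs, 3 residual and 2.48 prior degrees of freedom). The fit was tested on simulated data.

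Groups and replicate numbers come from the labels, which call the samples individual mice. Once group means were removed, treated and control samples of like number correlated with r of 0.447, 0.460 and 0.781, so the numbers were taken as pairs. Samples of unlike number gave -0.572 to 0.256, with numbers 1 and 2 also above 0 (0.256 and 0.246), so this check sets replicate 3 apart more than it tells 1 from 2. It rests on the data alone. With the mean of 3 samples removed, the deviations of a group sum to 0, so positive values at like numbers force negative ones elsewhere. The number of arrays limits precision. The miRNAs and lists were chosen with earlier results of these data known. Named are the 7 miRNAs, tested members of the wider list, marker examples and the 2 nearest profiles of each tested miRNA.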

Additional observations from a re-analysis of the deposited data

Results flagged for a closer look

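For 2 tested leukocyte miRNAs both treated males lay below both control males, while the treated female lay above the control female. The same order of the males held for 19 of the 197 tested miRNAs (9.64%). That share leaves the females out. How many of the 197 had the opposite order in the females as well was not counted, so it cannot be said whether 2 is many. MiR-155 differed by -1.11 between the means of the 2 treated and 2 control males, and by 2.39 between the treated and the control female. MiR-146a differed by -0.36 in males and by 0.66 in females. The difference between the sexes was not tested. The male value of miR-155 rests on treated replicate 3, at 7.76, since treated replicate 2 lay at 9.63 and the control males at 9.90 and 9.72. The females were 1 treated mouse of 5 months in Cy5 and 1 control mouse of 3.5 months in Cy3, so sex, age and dye cannot be told apart there, and the control female was replicate 3, the lowest sample for both miRNAs.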

How the results depend on the processing

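The count of miRNAs past the adjusted threshold stayed at 0 under all 20 alternatives, with the smallest adjusted p 0.287, with dye and the replicate number as a block. With that block the differences were 0.46 for miR-150, 0.02 for miR-155, -0.13 for miR-146a and -0.06 for miR-146b, and no call changed. The difference of miR-150 turned to -0.0227 in males only and ran from -0.19 to 1.18 with 1 sample left out. MiR-155 was -0.21 under 75th percentile scaling, where the median of all 197 miRNAs was -0.53, so that it lay 0.32 above that median. It turned to -1.09 in males only and -0.34 without both samples numbered 3, an alternative added after seeing the data, and ran from -1.22 to 1.32 with 1 sample left out. MiR-146a turned to 0.0713 with cyclic loess and 0.50 without normalisation between samples, where the median of all 197 was 0.29, and ran from -0.338 to 0.0283 with 1 sample left out. MiR-146b was 0.0902 without normalisation, or -0.20 relative to that median, and turned to 0.0627 without both samples numbered 3, and ran from -0.164 to 0.0421 with 1 sample left out. The median of the 4 differences was 0.56 without normalisation, with the same shift of all miRNAs in it, and ran from -0.23 to 0.58 (without control replicate 2) with 1 sample left out. The causes were not tested. With background thresholds of 2 or 5 SD, 5 or 4 of the 7 miRNAs were above background in at least 3 samples, against 4 at 3 SD, and the arms of miR-142 in none.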

Other observations

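The opposite strands of 2 leukocyte hairpins were also on the arrays. MiR-150*, the passenger strand of miR-150, read 1.03 to 1.33 times the empty signal and was above background in 1 of 6 samples. MiR-146b* read 1.01 to 1.10 times the empty signal and was above background in none.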
